A study of Homo sapiens with 8 samples.

Results

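The genes of the integrin subunits and of the laminin chains were followed in U87MG cells exposed to enzalutamide. They were chosen with earlier results of these data known, by a rule on the symbol (ITGA or ITGB followed by a subunit number or letter, LAMA, LAMB or LAMC followed by a chain number). The rule gave 38 of the 23368 genes counted: 18 integrin alpha, 8 integrin beta, 5 laminin alpha, 4 laminin beta and 3 laminin gamma genes. Of these, 31 of the 14448 genes with enough counts were tested, 21 integrin and 10 laminin genes. The other 7 had very few counts summed over 8 libraries: 43 for ITGAM, 33 for ITGB6, 21 for LAMB4, 20 for ITGA8, 17 for ITGA2B, 16 for ITGB2 and 8 for LAMC3.

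U87MG is an established human glioblastoma line, and enzalutamide is an antiandrogen that blocks the androgen receptor. Bulk RNA was sequenced from untreated cells (control) and from cells after 4, 24 and 48 h of the drug, with 2 libraries per group, to ask how gene expression in this line responds. The labels name no dose, no vehicle and no time for the controls, their extraction protocol mentions a differentiation that no other label mentions, and they do not say that the 2 libraries of a group were separate cultures, so the p-values measure only the spread between libraries, which may be technical. In such bulk RNA, fewer cells with a transcript and less of it per cell cannot be told apart.

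Integrins are receptors made of 1 alpha and 1 beta subunit that link the cell's actin cytoskeleton to the extracellular matrix. The alpha subunit largely sets the ligand, and the beta 1 subunit, encoded by ITGB1, pairs with many alpha subunits. Laminins are trimers of 1 alpha, 1 beta and 1 gamma chain that form the core of basement membranes, and glioblastoma cells are known to migrate along laminin-rich vessel walls using such receptors.

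Promoter windows are shown for 4 genes whose RNA moved in different ways: ITGA2 and ITGA5, each called in both directions at different times, and LAMB1 and LAMC1, 2 chains of the same laminin trimers that were called in opposite directions at 48 h. Each window holds 300 bases around the RefSeq start (GRCh38.p14), 5′ to 3′ on the gene's strand. Capitals mark the GC box (GGGCGG) and the AP-1 site (TGACTCA), each searched on both strands, so that CCGCCC and TGAGTCA are matches as well.
ITGA2 (chr5:52989102-52989401, plus strand): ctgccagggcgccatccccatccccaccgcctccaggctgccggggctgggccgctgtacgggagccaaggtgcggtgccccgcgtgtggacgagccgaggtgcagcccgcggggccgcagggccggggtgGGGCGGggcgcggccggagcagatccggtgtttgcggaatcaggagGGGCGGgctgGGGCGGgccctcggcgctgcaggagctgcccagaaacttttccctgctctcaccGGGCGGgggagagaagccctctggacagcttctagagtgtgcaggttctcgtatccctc
ITGA5 (chr12:54419217-54419516, minus strand): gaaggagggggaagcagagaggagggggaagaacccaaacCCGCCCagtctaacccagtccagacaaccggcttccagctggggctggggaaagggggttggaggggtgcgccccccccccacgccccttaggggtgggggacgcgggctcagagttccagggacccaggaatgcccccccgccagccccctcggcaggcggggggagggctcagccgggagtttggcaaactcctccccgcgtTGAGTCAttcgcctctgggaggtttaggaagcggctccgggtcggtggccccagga
LAMB1 (chr7:108003112-108003411, minus strand): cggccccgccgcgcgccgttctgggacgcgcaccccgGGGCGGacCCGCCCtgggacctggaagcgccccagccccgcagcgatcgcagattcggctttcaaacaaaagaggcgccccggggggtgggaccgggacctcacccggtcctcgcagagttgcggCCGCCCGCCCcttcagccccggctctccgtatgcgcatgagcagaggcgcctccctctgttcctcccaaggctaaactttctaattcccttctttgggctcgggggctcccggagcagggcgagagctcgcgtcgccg
LAMC1 (chr1:183023170-183023469, plus strand): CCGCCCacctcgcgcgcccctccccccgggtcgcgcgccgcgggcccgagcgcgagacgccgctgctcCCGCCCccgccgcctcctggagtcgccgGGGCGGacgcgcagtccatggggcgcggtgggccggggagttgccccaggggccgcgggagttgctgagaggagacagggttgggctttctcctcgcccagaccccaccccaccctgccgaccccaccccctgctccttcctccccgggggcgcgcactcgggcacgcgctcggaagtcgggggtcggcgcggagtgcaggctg

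All 4 windows were GC-rich, with a GC content of 72.7% for ITGA2, 69.3% for ITGA5, 71% for LAMB1 and 79% for LAMC1. GC boxes were found 4 times in ITGA2, 4 times in LAMB1 (2 of them overlapping), 3 times in LAMC1 and 1 time in ITGA5. ITGA5 also held 1 AP-1 site, and neither TATAAA nor AGAACA, a part of the androgen receptor element, occurred in any of the 4. RefSeq windows matched 26 of the 38 genes by symbol, with 33 windows. A gene was counted where any of its windows held the letters, while the share over all windows counts single windows. The shares below are therefore not of like units, and genes with several windows raise that of the members. An AP-1 site was present in 3 of the 26 (11.5%; ITGA5, LAMA3 and LAMB3) against 4.95% of all 35116 windows of this length, and a GC box in 14 (53.8%) against 45%. AGAACA was present in 4 of the 26 (15.4%; ITGA10, ITGA6, ITGB6 and LAMB3) against 14.8% of all windows, and TATAAA in 2 (7.69%; ITGA6 and ITGB1) against 11.5%. These matches describe letters in a window and are not measured binding sites.

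Libraries held 24620833 to 37162565 counts. The integrin and laminin genes took 0.865 and 0.882% of the counts in the 2 controls, 0.788 and 0.766% at 4 h, 0.876 and 0.877% at 24 h, then 0.645 and 0.715% at 48 h. The mesenchymal and glial line markers VIM (5611 to 13642 CPM, the count scaled to the size of the library) and CD44 were abundant and NES was present, while GFAP, FABP7 and S100B were near background and SOX2 had 2 counts in all libraries. Summed markers of leukocytes (7 genes, 0.851 to 1.62 CPM) and epithelium (5 genes, 0.238 to 1.96 CPM) stayed near background, with CD3E at 0 and PTPRC at 14 counts in all. Endothelial markers (5 genes) summed to 20.1 and 20.4 CPM in the controls and to 6.26 and 6.67 CPM at 48 h, mostly KDR, and platelet markers (5 genes) to 2.13 to 5.21 CPM. Their part in the results was not tested.

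**Figure D1:**
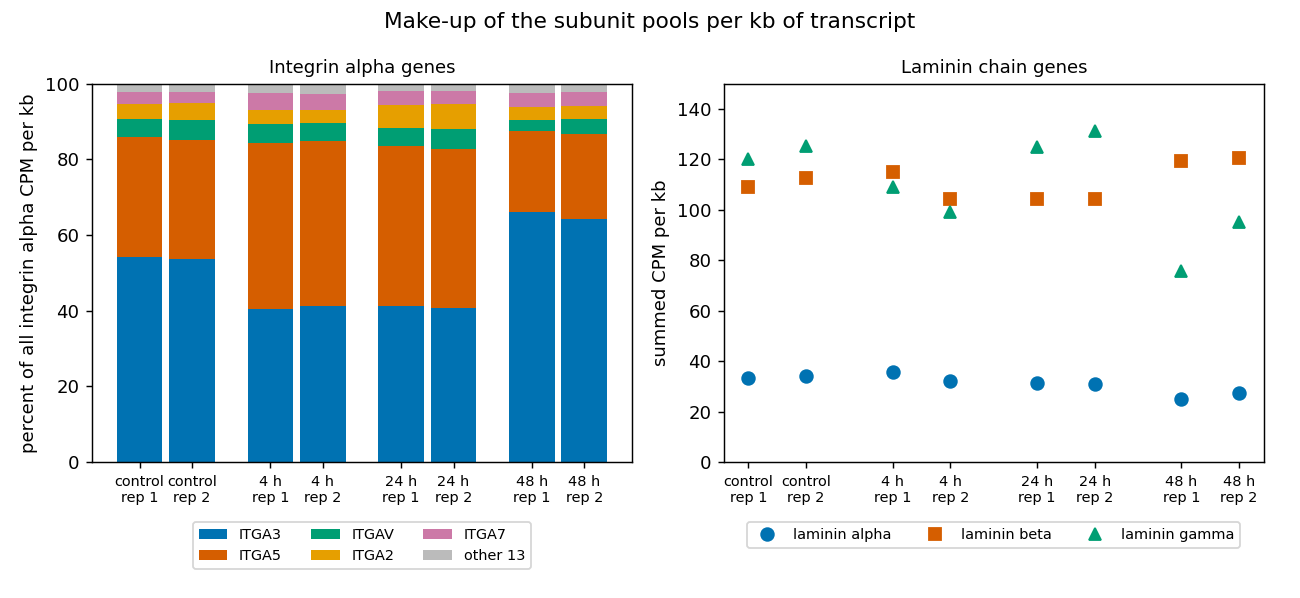
Left, share of each gene in the summed integrin alpha CPM per kb (percent) in each library, with the remaining 13 alpha genes in grey; right, summed CPM per kb of the laminin alpha, beta and gamma genes in each library. The ITGA5 share is larger in the 4 and 24 h libraries and smaller in the 48 h libraries than in the controls, and the laminin gamma sum is lowest in a 48 h library.

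Levels of different genes are comparable only per length of transcript, so they were also expressed as CPM per kb. In the controls ITGB1 stood first at 551 ± 11.2 CPM per kb (mean ± SD, n = 2), followed by ITGA3 at 394 ± 5.23, ITGA5 at 230 ± 2.63, LAMC1 at 118 ± 3.95 and ITGB3 at 102 ± 0.382. LAMB1, ITGB5, ITGAV, LAMB2, ITGA2, ITGA7, LAMB3 and LAMA4 followed, from 55.01 ± 2.35 down to 20.4 ± 0.0449 CPM per kb. The ranges of the 2 control libraries did not overlap between any neighbours of these first 13. Further down, LAMA5 and ITGAX overlapped, as did ITGB8 with ITGA9, ITGA10 with ITGAL, ITGAL with ITGAD, and ITGAD with ITGB4. The cells therefore held RNA for receptors of laminin (ITGA3, ITGA7), fibronectin (ITGA5), vitronectin (ITGAV with ITGB3 or ITGB5) and collagen (ITGA2), and for laminin chains in all 3 classes.

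Summed over subunits, integrin beta RNA was 697 ± 9.31 CPM per kb in the controls, 702 ± 14.3 at 4 h, 748 ± 8.17 at 24 h and 800 ± 29.8 at 48 h. Integrin alpha RNA was 729 ± 4.87, 646 ± 15.3, 765 ± 6.68 and 619 ± 23.8 in the same order. The alpha sum was thus the larger one in every control and 24 h library, and the smaller one in every 4 and 48 h library. Laminin alpha chains summed to far less than beta or gamma chains. In the controls these sums were 33.6 ± 0.592, 111 ± 2.58 and 123 ± 3.62 CPM per kb, and at 48 h they were 26.2 ± 1.78, 120 ± 0.928 and 85.4 ± 13.9.

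After 4 h of enzalutamide, 6 of the 31 tested genes were higher than in controls and 5 were lower. Among the integrins ITGA3 and ITGA2 fell and ITGA5 and ITGB3 rose. Among laminins LAMB2 rose and LAMB1 and LAMB3 fell. For comparison, 15% of all tested genes were called higher and 13.6% lower. The median log2 change was 0.07 over the 31 genes and -0.00404 over all genes. With library totals alone 4 were higher and 6 lower, beside 11.4% and 18.5% of all tested genes under that scaling. Fits without a control or 4 h library called fewer of all tested genes in both directions. The counts that follow are of the 32 integrin and laminin genes tested in those fits. The count of higher genes dropped to 3 with control replicate 2 left out, to 2 with 4 h replicate 1 left out and to 3 with 4 h replicate 2 left out. Leaving out either control replicate 2 or 4 h replicate 2 brought the lower genes to 3.

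After 24 h, 5 of the 31 genes were higher (12.9% of all tested genes were) and 5 were lower (9.39% of all). ITGB3, ITGA5, ITGA2, ITGA11 and LAMA3 were higher, and ITGA3, ITGAX, ITGB8, LAMA4 and LAMB3 were lower. The median log2 change was 0.00202, against 0.0146 over all genes. Fits without a control, 4 h or 24 h library called fewer of all tested genes in both directions. The counts that follow are of the integrin and laminin genes tested in those fits, 31 without 24 h replicate 2 and 32 otherwise. Leaving out either control replicate 1 or 24 h replicate 2 brought the higher genes to 3. The number of lower genes was 2 without control replicate 1, control replicate 2 or 24 h replicate 1, 3 without either 4 h library, and 1 without 24 h replicate 2.

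At 48 h the balance lay with the lower genes: 15 of 31 were lower and 8 higher, with a median log2 change of -0.28 against -0.02 over all genes. Among all tested genes 33.5% were lower and 33.3% higher. ITGA5, ITGAV, ITGA2, LAMC1 and LAMA5 fell, and ITGB1 and LAMB1 were higher. Of the integrins 6 were higher and 10 lower of 21, and of the laminins 2 were higher and 5 lower of 10. Scaling by library totals alone, which moved the median of all genes by -0.28, left 1 gene higher (ITGAL) and 20 lower, with 1 higher and 12 lower integrins and 0 higher and 8 lower laminins. Under that scaling 19% of all tested genes were higher and 46.6% lower. Fewer of all tested genes were called higher without control replicate 1, and the count that follows is of the 32 members tested in that fit. The count of higher genes was 5 without control replicate 1.

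The tested genes had long transcripts, with a median of 5618 bases against 3391.5 over the 12720 genes with a known length. Genes of 2867 to 11426 bases, the range of the integrin and laminin genes, had a median log2 change of -0.14 at 48 h. With the trend of each library with transcript length removed, an alternative chosen after the data were seen, 9 of the 31 genes were higher and 13 lower at 48 h. Over all 14448 tested genes that alternative gave 4644 higher and 5093 lower. The rank correlation of length with the difference between the 2 libraries of a group was largest at 48 h (0.42 over all genes, a description across genes that share libraries). The part of length in the 48 h counts was otherwise not tested.

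Between times, 8 of 31 genes were higher at 24 h than at 4 h (21.2% of all tested genes) and 5 were lower (20.3% of all). Fits without a 4 h or 24 h library called fewer of all tested genes higher in this step. The counts that follow are of the integrin and laminin genes tested in those fits, 31 without 24 h replicate 2 and 32 otherwise. The count of higher genes was 5 without 4 h replicate 1, 3 without 4 h replicate 2, 4 without 24 h replicate 1 and 3 without 24 h replicate 2. From 24 to 48 h, 5 were higher (31.5% of all) and 13 lower (35.3% of all). Their median log2 change was -0.24, against -0.07 over all genes and -0.21 over genes of 2867 to 11426 bases, the same length range. In that step 4 were higher and 18 lower by library totals alone, with a shift of the median of all genes by -0.22, beside 21.4% higher and 45.2% lower among all tested genes. In all, 27 of the 31 genes (87.1%) were called at 1 or more of the 3 times against control, and so were 77.4% of all tested genes. The 4 called at all 3 times (12.9%, against 7.65% of all) were ITGB3, ITGA11, ITGA5 and ITGA2, and the 4 called at none (12.9%, against 22.6% of all) were ITGB4, ITGB7, ITGAD and LAMA2. No test compared these shares.

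**Figure D2:**
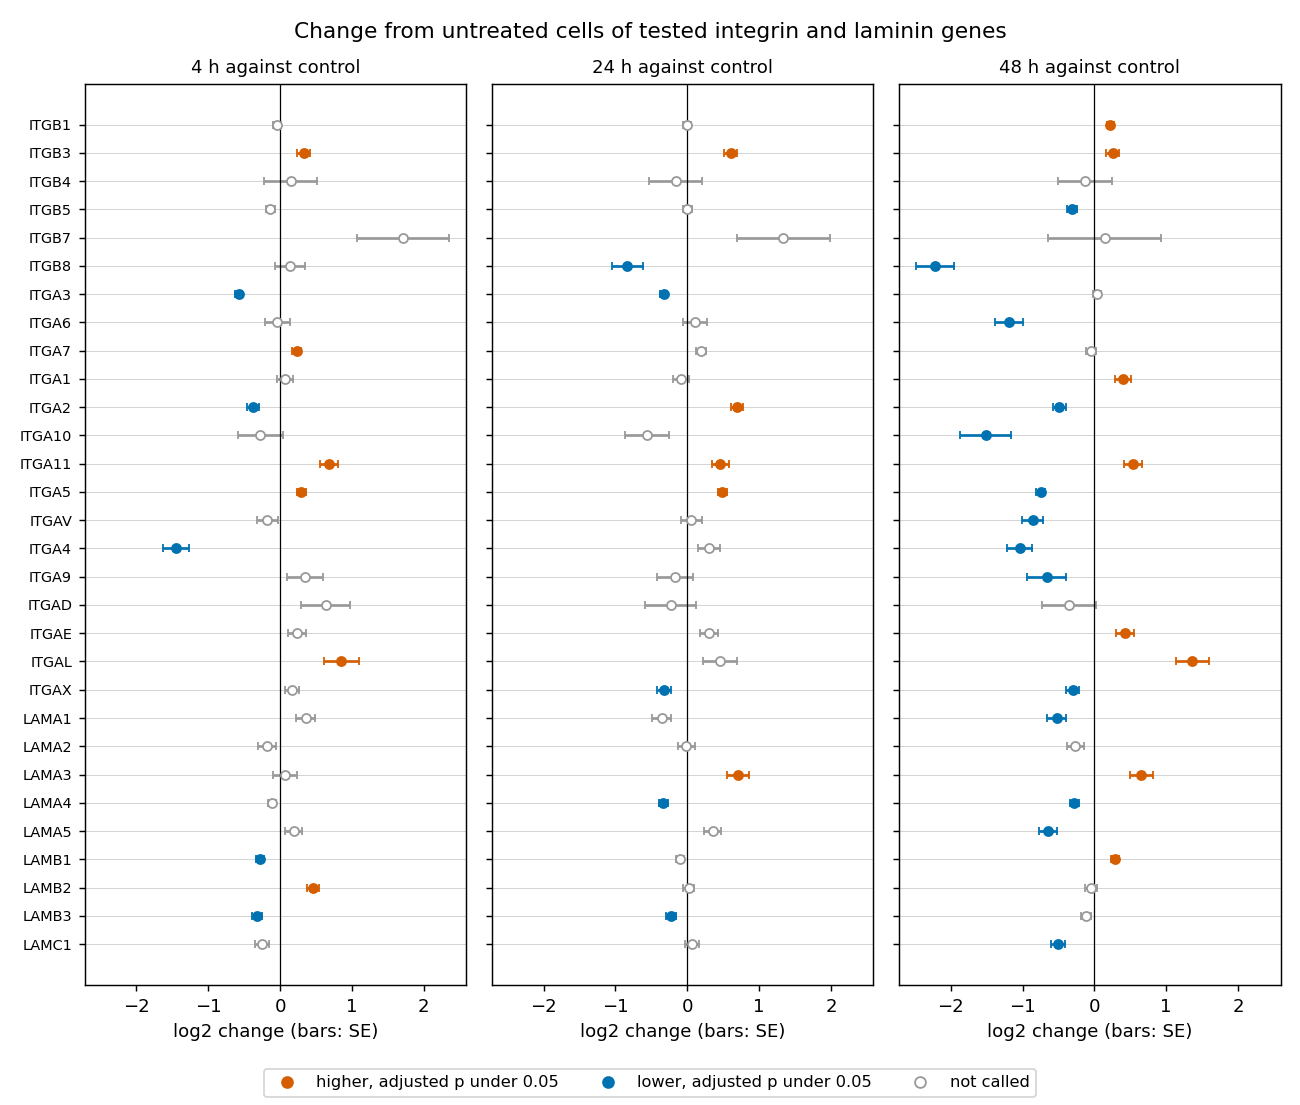
Log2 change from control (x axis) of tested genes at 4, 24 and 48 h, with bars of 1 SE; filled points passed an adjusted p under 0.05. ITGA5 and ITGA2 lie on different sides of 0 at different times, and at 48 h more called genes lie below 0 than above; ITGB1 and ITGB3 change sign there when library totals alone are used.

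ITGB1, the beta subunit shared by most matrix receptors, stood at 2056 and 2116 CPM in the controls, 2044 and 1999 at 4 h, 2113 and 2047 at 24 h, then 2412 and 2460 at 48 h. The 48 h libraries lay above the other 6, which spanned 1999 to 2116 CPM. Its log2 change at 48 h was 0.22 (SE 0.05, adjusted p 0.00249, edgeR), and -0.0545 when library totals alone were used, which reverses the direction. It was 79.1 ± 0.544% of the beta RNA per kb in the controls, 73.5 ± 0.826% at 24 h and 80.5 ± 1.90% at 48 h.

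ITGB3 encodes the beta 3 subunit, which with alpha V binds vitronectin and other proteins with an RGD motif. It stood at 406 and 408 CPM in the controls, 525 and 499 at 4 h, 612 and 625 at 24 h, then 431 and 540 at 48 h. All treated libraries lay above both controls, the 24 h pair was highest, and the 48 h pair was spread widely. The log2 change was 0.33 (SE 0.09, adjusted p 0.0172) at 4 h and 0.60 (SE 0.09, adjusted p 7.81e-04) at 24 h. At 48 h it was 0.25 (SE 0.09, adjusted p 0.0248), and -0.0225 with library totals alone, again the opposite sign. The call at 4 h was lost without any 1 of the control or 4 h libraries (adjusted p 0.0581 to 0.114), and with library totals alone (0.0579). At 48 h it was lost without either control library (0.0844 and 0.0889), with the 5 CPM filter (log2 change 0.17, adjusted p 0.115) and with only the groups compared in the fit (0.23, adjusted p 0.1). Without 48 h replicate 2 the 48 h log2 change of ITGB3 was 0.0913 (adjusted p 0.175), and without 48 h replicate 1 it was 0.41. In the GENCODE annotation 51.6% of the ITGB3 exons also belong to AC068234.1, a gene model on the same strand that the count table does not list.

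ITGB5, the beta 5 subunit that also pairs with alpha V, stood at 195 and 181 CPM in the controls, 176 and 167 at 4 h, 183 and 194 at 24 h, then 146 and 157 at 48 h. The 48 h libraries lay below all others, with a log2 change of -0.31 (SE 0.07, adjusted p 0.00177). ITGAV itself, the alpha V subunit, stood at 247 and 272 CPM in the controls, 235 and 223 at 4 h, 255 and 286 at 24 h, then 114 and 173 at 48 h. Both 48 h libraries were below the other 6, though apart from each other. Its log2 change at 48 h was -0.86 (SE 0.15, adjusted p 3.37e-04). The alpha V receptors for vitronectin therefore showed lower RNA of alpha V and beta 5 at 48 h, while beta 3 was higher at 4 and 24 h. In CPM the ratio of ITGB3 to ITGAV within a library was 1.64 and 1.501 in the controls, 2.23 and 2.24 at 4 h, 2.40 and 2.19 at 24 h, then 3.79 and 3.12 at 48 h. Such ratios do not depend on the scaling, and they were chosen after their values were seen.

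ITGA5 encodes the alpha 5 subunit, which with beta 1 forms the main fibronectin receptor. It stood at 1029 and 1012 CPM in the controls, 1274 and 1227 at 4 h, 1451 and 1415 at 24 h, then 578 and 639 at 48 h. No 2 groups overlapped: the level climbed from control to 4 h to 24 h and was lowest at 48 h. The log2 change from control was 0.29 (SE 0.06, adjusted p 0.00459) at 4 h, 0.49 (SE 0.06, adjusted p 2.51e-04) at 24 h and -0.75 (SE 0.06, adjusted p 1.12e-06) at 48 h. From 24 to 48 h it fell by 1.24 on the log2 scale (SE 0.06, adjusted p 2.84e-08), which is 2.36-fold lower. The 4 h call was lost without 4 h replicate 1 (adjusted p 0.0525). The window printed for ITGA5 was the only 1 of the 4 shown with an AP-1 match.

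ITGA3 encodes the alpha 3 subunit of a laminin receptor with beta 1. It stood at 1943 and 1907 CPM in the controls, 1302 and 1281 at 4 h, 1550 and 1516 at 24 h, then 1943 and 1997 at 48 h. The 4 h pair was lowest, the 24 h pair lay between, and the 48 h pair was level with or just above the controls. Its log2 change was -0.58 (SE 0.05, adjusted p 1.93e-05) at 4 h and -0.33 (SE 0.05, adjusted p 0.00115) at 24 h. At 48 h it was 0.03 (SE 0.05, adjusted p 0.581), which missed the threshold, and -0.24 with library totals alone (adjusted p 0.00117). The ratio of ITGA3 to ITGA5 CPM was 1.89 and 1.88 in the controls, 1.02 and 1.04 at 4 h, 1.07 and 1.07 at 24 h, then 3.36 and 3.13 at 48 h. As shares of integrin alpha RNA per kb, ITGA3 was 54.0 ± 0.356% and ITGA5 31.5 ± 0.151% in the controls, 40.9 ± 0.483% and 43.6 ± 0.131% at 4 h, 41.0 ± 0.281% and 42.2 ± 0.365% at 24 h, then 65.1 ± 1.26% and 22.1 ± 0.709% at 48 h. Per kb, with GENCODE lengths, ITGA5 was thus slightly above ITGA3 in the 4 and 24 h libraries, while in CPM ITGA3 was above ITGA5 in every library.

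**Figure D3:**
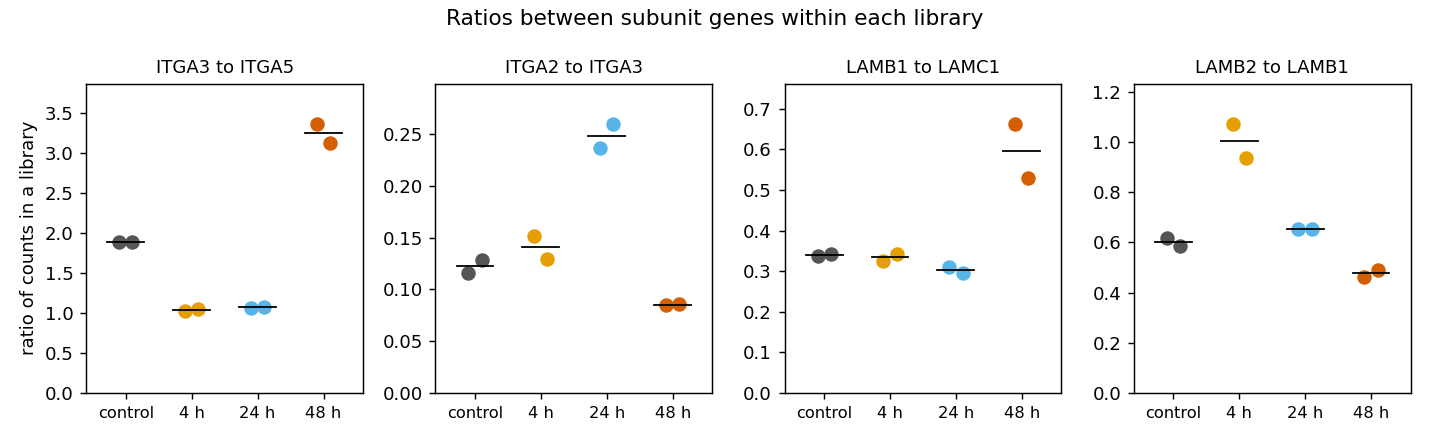
Ratio of the counts of 2 genes within each library (y axis, from 0); points are libraries, 2 per group, and lines are group means. The ITGA3 to ITGA5 ratio lies between 1.02 and 1.07 at 4 and 24 h and above 3 at 48 h, and the LAMB1 to LAMC1 ratio is highest at 48 h.

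The other alpha subunits of laminin receptors were less abundant. ITGA7 (alpha 7, known from muscle) stood at 99.9 and 94.2 CPM in the controls, 116 and 112 at 4 h, 116 and 106 at 24 h, then 92.6 and 95.0 at 48 h. The 4 and 24 h libraries lay above the control and 48 h libraries, and at 4 h the log2 change was 0.23 (SE 0.07, adjusted p 0.0259). That call was lost without any 1 of the control or 4 h libraries (adjusted p 0.0624 to 0.183), and with library totals alone (0.0857). ITGA6, a laminin receptor subunit used as a marker of glioma stem cells, lay between 4.40 and 5.32 CPM in the control, 4 h and 24 h libraries and at 1.74 and 2.41 CPM at 48 h. It fell by 1.19 on the log2 scale at 48 h (SE 0.19, adjusted p 2.13e-04). ITGB4, the beta 4 partner of alpha 6 in hemidesmosomes, lay between 0.646 and 1.24 CPM in all libraries and was not called at any time.

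Among the collagen receptor subunits, ITGA2 (alpha 2) stood at 225 and 246 CPM in the controls, 198 and 165 at 4 h, 366 and 394 at 24 h, then 165 and 171 at 48 h. The 24 h libraries were the highest and the 4 and 48 h libraries the lowest, with no overlap with the controls. The log2 change was -0.37 (SE 0.09, adjusted p 0.00756) at 4 h, 0.69 (SE 0.09, adjusted p 2.33e-04) at 24 h and -0.49 (SE 0.09, adjusted p 3.96e-04) at 48 h. The 4 h call was lost without control replicate 2 (adjusted p 0.0754) or 4 h replicate 2 (0.0871). The step from 4 to 24 h was 1.07 (SE 0.09, adjusted p 3.49e-06), and the step from 24 to 48 h was -1.18 (SE 0.09, adjusted p 4.59e-07). ITGA2 and ITGA5 thus both peaked at 24 h, but at 4 h ITGA5 was above the controls and ITGA2 below them. ITGA11 (alpha 11, a receptor for fibrillar collagen) stood at 7.48 and 8.34 CPM in the controls, 13.04 and 12.3 at 4 h, 11.1 and 10.7 at 24 h, then 12.3 and 10.7 at 48 h. Every treated library lay above both controls.

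The log2 change of ITGA11 was 0.68 (SE 0.12, adjusted p 0.00199) at 4 h, 0.46 (SE 0.12, adjusted p 0.0203) at 24 h and 0.53 (SE 0.12, adjusted p 0.00253) at 48 h. The 24 h call was lost without any 1 of the control or 24 h libraries (adjusted p 0.0529 to 0.155) or with the transcript length trend removed (0.0636), and the 48 h call with library totals alone (0.0829). ITGA1 (alpha 1, for basement membrane collagen) stood at 22.0 and 25.9 CPM in the controls, 27.5 and 22.8 at 4 h, 22.1 and 23.0 at 24 h, then 31.4 and 31.8 at 48 h, above all others. Its 48 h log2 change of 0.40 (SE 0.11, adjusted p 0.00682) was 0.12 with library totals alone and lost its call without control replicate 1 (adjusted p 0.0765). The collagen receptors as a group therefore did not share a direction at 48 h, with 2 higher (ITGA1, ITGA11) and 2 lower (ITGA2, ITGA10) of 4, and with 0 higher and 2 lower by library totals alone.

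The 5 called genes with a mean log2 CPM under 2 were ITGA4, ITGA9, ITGA10, ITGB8 and ITGAL. Their values follow for the sizes of their changes, and they rest on 14 to 219 counts per library. ITGA4 (alpha 4, for fibronectin and VCAM1) stood at 5.07 and 4.37 CPM in the controls, 1.68 and 1.77 at 4 h, 5.75 and 5.93 at 24 h, then 2.25 and 2.34 at 48 h. It was the gene with the most marked drop at 4 h, by 1.45 on the log2 scale (SE 0.18, adjusted p 1.83e-04), was 3.38-fold higher at 24 h than at 4 h (adjusted p 2.06e-05), and fell again. ITGB8 (beta 8, an alpha V partner that activates latent TGF-beta) stood at 3.12 and 2.79 CPM in the controls, 3.36 and 3.18 at 4 h, 1.55 and 1.76 at 24 h, then 0.511 and 0.756 at 48 h. Its drop at 48 h, by 2.22 on the log2 scale (SE 0.26, adjusted p 1.90e-05), was the largest fall of any integrin or laminin gene in that comparison. ITGA9 and ITGA10 were lower at 48 h by 0.67 and 1.51 on the log2 scale (adjusted p 0.0478 and 0.00285), and the ITGA9 call was lost with DESeq2 size factors (0.052). The calls of these 5 genes were checked singly only with library totals and DESeq2 size factors, and not with a library left out.

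Subunits known mainly from leukocytes were scarce or mixed. ITGAL (alpha L, the LFA-1 subunit) stood at 1.47 and 1.18 CPM in the controls, 2.36 and 2.44 at 4 h, 1.65 and 2.00 at 24 h, then 3.06 and 3.78 at 48 h. Its log2 change was 0.86 (SE 0.24, adjusted p 0.0205) at 4 h and 1.36 (SE 0.23, adjusted p 2.94e-04) at 48 h. ITGB2, the beta 2 subunit that completes the alpha L, alpha M, alpha X and alpha D receptors, had at most 4 counts in any library. ITGAX (alpha X) nevertheless stood at 36.9 and 32.9 CPM in the controls, 37.6 and 40.6 at 4 h, 29.7 and 26.2 at 24 h, then 29.1 and 27.5 at 48 h. Its log2 change was -0.32 (SE 0.09, adjusted p 0.0319) at 24 h and -0.30 (SE 0.10, adjusted p 0.0148) at 48 h. The 24 h call was lost without any 1 of the control, 4 h or 24 h libraries (adjusted p 0.0517 to 0.262), and the 48 h call without control replicate 1 (0.14). ITGAE (alpha E, the E-cadherin receptor subunit) stood at 7.48 and 7.62 CPM in the controls, 9.24 and 8.65 at 4 h, 9.06 and 9.58 at 24 h, then 10.8 and 9.42 at 48 h. Its treated libraries lay above the controls, and it was 0.42 higher on the log2 scale at 48 h (SE 0.12, adjusted p 0.0108). That ITGAE call was lost with library totals alone (0.323), without control replicate 1 (0.0527) and without 48 h replicate 1 (0.067). ITGB7 lay between 0.058 and 0.794 CPM, and 51.4% of its exons overlap ZNF740 on the other strand, so that without a stated use of strand their reads cannot be told apart.

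**Figure D4:**
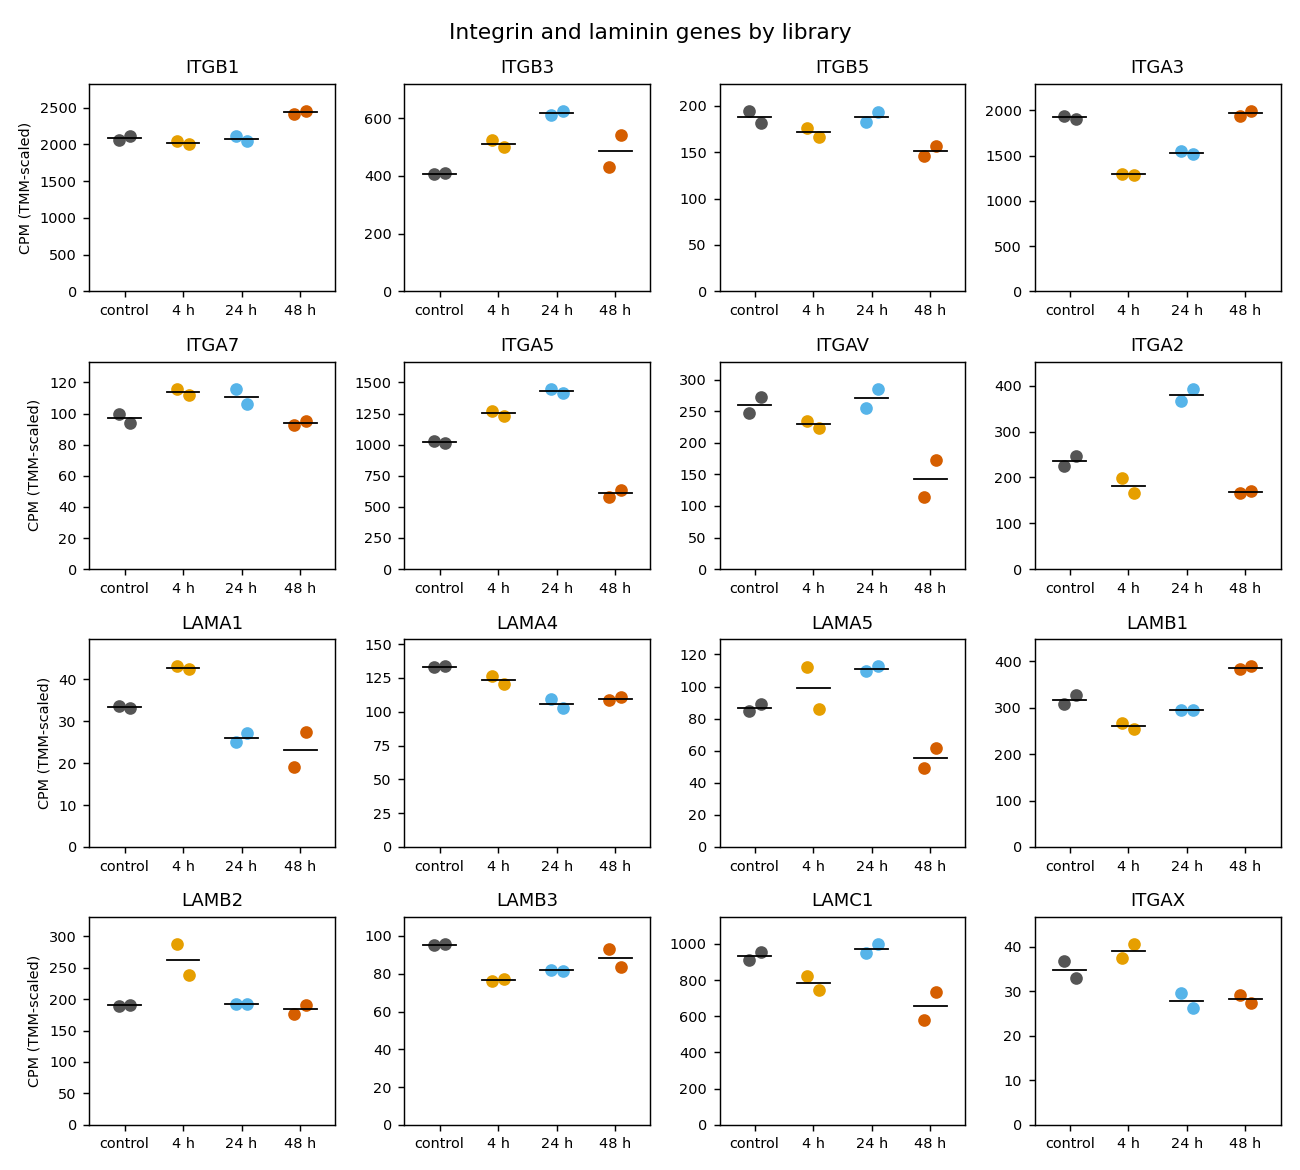
CPM scaled by TMM factors (y axis, from 0) of 16 genes in each library; points are libraries, 2 per group, and lines are group means. The 4 groups of ITGA5 are all apart, ITGA2 is highest at 24 h, and LAMB2 is highest at 4 h.

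Of the laminin gamma chains, LAMC1 (gamma 1, part of most laminins) was the most abundant laminin gene at 910 and 954 CPM in the controls, 822 and 744 at 4 h, 949 and 998 at 24 h, then 579 and 734 at 48 h. The 48 h libraries were the lowest, with a wide gap between them, and the highest 48 h library lay just below the lowest 4 h library. The log2 change at 48 h was -0.51 (SE 0.10, adjusted p 7.22e-04). LAMC1 was not called at 4 or 24 h, except as lower at 4 h with library totals alone (adjusted p 0.0407).

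Of the 3 tested beta chains, 1 was higher and 2 were lower at 4 h, and at 48 h 1 was higher and 0 lower, or 0 higher and 2 lower (LAMB2, LAMB3) with library totals alone. LAMB1 (beta 1) stood at 308 and 327 CPM in the controls, 268 and 255 at 4 h, 295 and 296 at 24 h, then 383 and 389 at 48 h. The 4 h libraries were lowest and the 48 h libraries highest. The log2 change was -0.28 (SE 0.06, adjusted p 0.00521) at 4 h and 0.28 (SE 0.06, adjusted p 0.0013) at 48 h. The 48 h value was 0.01 with library totals alone (adjusted p 0.94), and the 4 h call was lost without control replicate 2 (0.06) or 4 h replicate 2 (0.0623). LAMB2 (beta 2, of vessel and synaptic basement membranes) stood at 189 and 191 CPM in the controls, 287 and 238 at 4 h, 193 and 193 at 24 h, then 177 and 191 at 48 h. It was high only in the 4 h libraries, by 0.46 on the log2 scale (SE 0.08, adjusted p 0.00184), and was lower again at 24 h than at 4 h by a log2 change of -0.45 (SE 0.08, adjusted p 0.0014).

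LAMB3 (beta 3, of laminin 332) stood at 95.4 and 95.6 CPM in the controls, 76.1 and 77.3 at 4 h, 82.1 and 81.7 at 24 h, then 92.9 and 83.6 at 48 h. Its log2 change was -0.32 (SE 0.07, adjusted p 0.0057) at 4 h and -0.22 (SE 0.07, adjusted p 0.038) at 24 h. The 4 h call was lost without 4 h replicate 1 (adjusted p 0.0578), and the 24 h call without any 1 of the control, 4 h or 24 h libraries (0.0704 to 0.197), and with no filter on low counts (0.0553). Within a library, the ratio of LAMB2 to LAMB1 CPM was 0.616 and 0.585 in the controls, 1.07 and 0.934 at 4 h, 0.652 and 0.651 at 24 h, then 0.461 and 0.491 at 48 h. The ratio of LAMB1 to LAMC1 was 0.338 and 0.343 in the controls, 0.326 and 0.342 at 4 h, 0.311 and 0.296 at 24 h, then 0.662 and 0.530 at 48 h. Beta 1 and gamma 1, which are chains of the same trimers, therefore had a ratio of 0.296 to 0.343 in the control, 4 h and 24 h libraries and a higher one in both 48 h libraries.

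The alpha chains, which set the laminin's receptor binding, were led by LAMA4 (alpha 4, of vessel laminins) at 60.7 ± 0.936% of alpha chain RNA per kb in the controls, with LAMA5 (alpha 5) at 22.7 ± 0.474%. LAMA4 stood at 133 and 133 CPM in the controls, 126 and 121 at 4 h, 109 and 103 at 24 h, then 108 and 111 at 48 h. Its 24 and 48 h libraries lay below all others, with log2 changes of -0.33 (SE 0.06, adjusted p 0.00343) and -0.28 (SE 0.06, adjusted p 0.00198). The LAMA4 call at 24 h was lost without 24 h replicate 2 (adjusted p 0.0658), and the call at 48 h with the transcript length trend removed (log2 change -0.12, adjusted p 0.0918). LAMA5 stood at 84.6 and 89.3 CPM in the controls, 112 and 86.3 at 4 h, 109 and 113 at 24 h, then 49.4 and 61.7 at 48 h. The 48 h libraries lay below all others, with a log2 change of -0.65 (SE 0.12, adjusted p 7.09e-04) from control and -1.0 (SE 0.12, adjusted p 2.64e-05) from 24 h.

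LAMA1 (alpha 1, of early embryonic laminin) stood at 33.7 and 33.2 CPM in the controls, 43.0 and 42.5 at 4 h, 24.9 and 27.3 at 24 h, then 19.0 and 27.4 at 48 h. It was below control only at 48 h by the test, with a log2 change of -0.53 (SE 0.14, adjusted p 0.00492), and it was lower at 24 h than at 4 h by a change of -0.71 (SE 0.13, adjusted p 0.00146). LAMA3 (alpha 3, of laminin 332) was higher at 24 and 48 h, going from 4.62 and 5.90 CPM in the controls, with 5.76 and 5.32 in the 4 h pair, to 7.82 and 9.34 in the 24 h pair, with 8.44 and 8.11 in the 48 h pair. The log2 change of LAMA3 was 0.70 (SE 0.16, adjusted p 0.00853) at 24 h and 0.65 (SE 0.16, adjusted p 0.00345) at 48 h. The 24 h call was lost without control replicate 1 (adjusted p 0.0969) or 24 h replicate 2 (0.0946), and the 48 h call with library totals alone (0.0582). LAMB3, which joins the same laminin, was not called at 48 h, but was lower with library totals alone (log2 change -0.39, adjusted p 0.00028). LAMA2 (alpha 2, of muscle laminin) lay between 12.2 and 17.3 CPM and was not called, except as lower at 48 h with library totals alone (log2 change -0.54, adjusted p 0.00312).

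Genes that work with integrins and laminins were read from 4 lists. Their counts stand beside the shares of all tested genes given above, 15% higher and 13.6% lower at 4 h, 12.9% higher and 9.39% lower at 24 h, then 33.3% higher and 33.5% lower at 48 h. With library totals alone the 24 h shares were 9.41% higher and 13.3% lower, and those of 48 h were 19% higher and 46.6% lower. No test compared a list with all genes. Of 27 tested adhesion plaque genes, which couple integrins to actin, 8 were higher and 5 lower at 4 h, 5 and 1 at 24 h, then 9 and 10 at 48 h, which is near the share over all genes. With library totals alone the 24 and 48 h counts were 3 and 5, and 4 and 17. VCL (vinculin) was higher by 0.47 at 4 h and 0.29 at 24 h on the log2 scale (adjusted p 1.94e-04 and 0.00582). PXN (paxillin) was higher by 0.70 at 24 h (adjusted p 9.38e-06). From 24 to 48 h VCL had a log2 change of -0.87 and PXN of -0.83 (adjusted p 2.72e-07 and 1.83e-07). FYN, a Src family kinase, was lower at 48 h by a log2 change of -1.08 (adjusted p 4.38e-08).

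Of the 15 tested other ligands of integrins, 2 were higher and 3 lower at 4 h, 3 and 2 at 24 h, then 6 and 6 at 48 h (4 and 7 with library totals alone). THBS1, a matrix glycoprotein that integrins and CD47 bind, averaged 27.1 CPM in the controls, 147 at 4 h, 57.9 at 24 h and 10.8 at 48 h. Its log2 change was 2.44 (SE 0.09, adjusted p 2.40e-08) at 4 h, 1.09 (SE 0.08, adjusted p 1.02e-05) at 24 h and -1.33 (SE 0.10, adjusted p 3.77e-07) at 48 h. SPP1 (osteopontin, a ligand of alpha V integrins) was lower at 4 h by a log2 change of -0.45 and higher at 48 h by 0.95 (adjusted p 5.82e-04 and 3.19e-07). CTGF, a matricellular ligand, was higher at 4 and 24 h by 0.98 and 0.55 on the log2 scale (adjusted p 7.17e-05 and 0.00408) and lower at 48 h by a change of -1.19 (adjusted p 6.00e-06). CYR61, of the same family, had a log2 change of -0.16 at 4 h (adjusted p 0.191, not called), 0.48 at 24 h and 1.21 at 48 h (adjusted p 0.00225 and 2.95e-07).

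Of the 12 laminin partners, 3 were higher and 2 lower at 4 h, 4 and 0 at 24 h, then 3 and 5 at 48 h (1 and 7 with library totals alone). DAG1 (dystroglycan, a laminin receptor that is not an integrin) was higher at 24 h by 0.41 and lower at 48 h by a change of -0.32 on the log2 scale (adjusted p 0.00115 and 0.00107). AGRN (agrin, which binds laminins) was lower at 48 h, by a change of -0.84, and CD151, a tetraspanin that associates with alpha 3 beta 1, was higher by 0.56 (adjusted p 4.82e-06 and 1.22e-04). Of the 4 integrin inhibitors, 0 were higher and 1 lower at 4 h, 1 and 0 at 24 h, then 2 and 0 at 48 h. With library totals alone the 24 and 48 h counts were 1 and 1, and 2 and 2. FLNA (filamin A, which competes with talin for beta tails) had a log2 change of -0.20 at 4 h, 0.31 at 24 h and 0.45 at 48 h (adjusted p 0.0404, 0.00649 and 9.31e-05).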

How the data were processed

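RNA-seq libraries of U87MG cells (2 per group, 8 in all) were grouped by their labels. The authors' deposited files hold raw, unnormalised counts per gene symbol. Per the submitters' processing notes, Bowtie and the builds hg19 and GRCh37 were used. Bowtie's version, the counter, the annotation and the strand setting were not given in the sources used here. In total 28 names turned into dates (0.191 to 0.224% of counts) stayed in the totals.

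Counts were fitted in R 4.3.3 with edgeR 4.0.16: filterByExpr (14448 genes), TMM factors of 0.870 to 1.08, and 1 quasi-likelihood fit of all 8 libraries with 4 residual degrees of freedom (biological coefficient of variation 7.15%). Calls were made where the p, adjusted over all genes tested (Benjamini-Hochberg), was under 0.05, and all adjusted p-values are from edgeR. SE is the size of the log2 change over the root of F. Levels are CPM scaled by TMM. The members and lists were chosen with earlier results of these data known. Full values were given for called members whose mean log2 CPM reached 2 or more, and up to 3 called genes per list and comparison with the smallest p could be named. Transcript lengths came from GENCODE v29 (GRCh38), matched by symbol for 12720 genes (88.0%) and all 31 tested members, and promoters from RefSeq. The replicates of a group differed by more than counting noise (chi-square per degree of freedom 4.61 to 20.4). The fit was tested on simulated data. Alternatives were DESeq2 1.42.0, its size factors in edgeR, library totals alone, no filter, at least 5 CPM in at least 2 libraries, a replicate block, fitting the compared groups alone, a minimum log2 change of 1, and leaving out each library. Removing the length trend and leaving out both 48 h libraries were chosen after seeing the data. Some results are not reported here.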

Additional observations from a re-analysis of the deposited data

Results flagged for a closer look

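3 of the 31 tested genes (9.68%) were called in opposite directions from control at different times, a smaller share than the 16% of all 14448 tested genes, and the difference between those times was tested in the same edgeR fit. The times share their controls, but each difference below compares treated libraries directly. A difference was listed only where both changes from control were called with opposite signs and the difference itself was called. Its small adjusted p-value and the separation of its libraries are therefore part of that choice and no further support. ITGA2 was lower than control at 4 h and higher at 24 h, and its log2 change from 4 to 24 h was 1.07 (SE 0.09, adjusted p 3.49e-06). It was lower again at 48 h, with a log2 change from 24 to 48 h of -1.18 (SE 0.09, adjusted p 4.59e-07). ITGA5 was higher at 4 and 24 h and lower at 48 h. Its log2 change was -1.04 from 4 to 48 h (SE 0.06, adjusted p 7.24e-08) and -1.24 from 24 to 48 h (SE 0.06, adjusted p 2.84e-08). LAMB1 was lower at 4 h and higher at 48 h, with a log2 change from 4 to 48 h of 0.56 (SE 0.06, adjusted p 6.88e-06). With library totals alone its change from control at 48 h was 0.005 (adjusted p 0.94, edgeR), so its opposite calls depend on the scaling. The 4 h calls of LAMB1 and ITGA2 were each lost without control replicate 2 or 4 h replicate 2, and that of ITGA5 without 4 h replicate 1. The comparison of 48 h with 4 h was chosen after seeing the data. In each of these differences both libraries of one time lay on the same side of both libraries of the other.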

How the results depend on the processing

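Of 61 called values of the 22 members given in full, 59 kept their direction under every setting in which they were fitted and 33 also kept their call. The 2 reversals were ITGB1 (-0.0545) and ITGB3 (-0.0225) at 48 h with library totals only. DESeq2 lost 2 of the calls, DESeq2 size factors 1, library totals 8 beside the reversals, no filter 1, the 5 CPM filter 1, only the groups compared 1, and removal of the length trend 3, while leaving out both 48 h libraries lost 0 of 29. Leaving out 1 library lost 1 to 11 calls. At 4 h, a log2 change of at least 1 left 0 members higher and 1 lower, beside 353 and 236 of 14448 tested genes. At 24 h it left 0 and 0, beside 244 and 171, and at 48 h 1 and 5, beside 766 and 2290. For 24 h against 4 h it left 2 and 0, beside 604 and 545. For 48 h against 24 h it left 0 and 6, beside 798 and 2330. With library totals only, 1 member was higher at 48 h, beside 19% of all tested genes. The ranges that follow are of 31 or 32 members, from fits that also changed the calls over all tested genes. Without a 48 h library, more of all tested genes were called in both directions at 4 h, at 24 h and for 24 h against 4 h. Leaving out 1 library at a time gave 2 to 8 higher and 3 to 7 lower at 4 h, 3 to 7 higher and 1 to 6 lower at 24 h, 5 to 8 higher and 14 to 15 lower at 48 h, 3 to 10 higher for 24 h against 4 h, and 12 to 14 lower for 48 h against 24 h.

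With the replicate block, 7 members were higher and 6 lower at 4 h, beside 2411 and 2213 of all 14448 tested genes. At 24 h these counts were 7 and 6, beside 2169 and 1580, and at 48 h 8 and 15, beside 4945 and 4939. For 24 h against 4 h they were 8 and 5, beside 3240 and 3130. For 48 h against 24 h they were 5 and 13, beside 4661 and 5229, and no called value was lost. The replicate deviations of 2 groups correlated at -0.00488 to 0.135. As not every pair was over 0.1, the numbers were not taken to pair the libraries, and whether libraries with the same number share a batch was not tested. Where 1 library was left in a group, its spread was taken from the rest. With a control, 4 h or 24 h library left out, comparisons with its group also called fewer of all tested genes. Members under about 4 CPM rest on few counts.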
